A study of Macaca mulatta with 8 samples.

Results

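The genes described here carry family names of chromatin modifiers and remodellers. Such proteins write, erase and recognise chemical marks on histones and DNA, or slide and evict nucleosomes. The genes were chosen by name alone. All genes were taken with a single symbol in the array's annotation that begins with KDM, KMT, HDAC, SIRT, SMARC, CHD, CBX, DNMT, SETD or BRD (with a number after SIRT, CHD and BRD). This gave 78 genes of the 14132 genes measured, each represented by its brightest probe set, the one with the highest mean log2 intensity over all 8 arrays. They comprise 16 KMT and SETD genes, 14 KDM, 10 SMARC, 9 HDAC, 8 CHD, 6 BRD, 6 CBX, 5 SIRT and 4 DNMT genes. Some members are known mainly for targets outside chromatin: SIRT4 and SIRT5 are mitochondrial, and SETD3 methylates actin. Other members of these families, SMARCA4, SMARCA5, CHD3, CHD4, HDAC4 and HDAC7 among them, were not analysed here.

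The samples are granulosa cells of rhesus macaques on Affymetrix rhesus arrays, labelled PM-GC (4 arrays; follicle-stimulating hormone, FSH, alone) and VVM-GC (4 arrays; FSH followed by maturation in vivo under human chorionic gonadotropin, hCG). They are called before and after hCG below, and both groups had received FSH. In the series design the cells are mural granulosa cells, which line the follicle wall, whereas the source labels of the samples name cells from cumulus-oocyte complexes. Neither the animals behind the replicates, nor their age, nor the interval after hCG was stated, so p-values measure only the spread between these samples, which may be partly technical.

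As background, histone methyltransferases (KMT, SETD) and demethylases (KDM) add and remove methyl groups on lysines, and deacetylases (HDAC, SIRT) remove acetyl groups, which generally closes chromatin. Bromodomain proteins (BRD) bind acetylated lysines, and chromobox proteins (CBX) bind methylated ones. SMARC and CHD genes encode ATP-driven remodellers and their partner subunits, and DNMT genes encode the enzymes that methylate DNA. In the follicle, the ovulatory stimulus ends the proliferation of granulosa cells and starts their change into luteal cells.

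Array medians lay between 5.44 and 5.54 on the log2 scale. Any 2 arrays from before hCG correlated at 0.984 to 0.988, 2 from after hCG at 0.974 to 0.984, and 1 of each at 0.935 to 0.957. Of 14 markers of granulosa cells, 11 were measured by singly annotated probe sets, and FSHR, FOXL2 and LHCGR were not analysed here. INHA, the inhibin alpha subunit, was at 14.07 ± 0.08 before and 13.50 ± 0.19 after hCG (SD, n = 4). Of the 11, 10 were lower after hCG, and the mean of the list ranged from 10.17 to 10.53 over the arrays before and from 8.99 to 9.28 after hCG (exact permutation p = 0.0286, the smallest that 4 against 4 arrays allow). Of 5 leukocyte markers 1 fell, of 4 erythrocyte markers 2 fell (HBA, a haemoglobin chain and one of them, lost its call in 7 of 16 alternatives), and of 4 theca markers 1 rose (STAR, also a steroidogenic gene of luteal cells) and 1 fell. No marker of the oocyte (7 measured), endothelium (7) or stroma (5) passed in limma, where 0, 2 and 1 had an unadjusted p under 0.05. Leaving out array 3 after hCG, the endothelial marker VWF passed (change 1.74, adjusted p = 0.0217), as did the stromal marker DCN without array 2 after hCG (change 1.297, adjusted p = 0.00168). The mean of the leukocyte markers ranged from 7.02 to 7.43 before and from 5.77 to 7.55 after hCG, lowest in array 3 (exact permutation p = 0.686), that of the erythrocyte markers from 7.65 to 8.14 and from 6.18 to 7.61 (p = 0.0286 in the same exact test), and that of the theca markers from 5.91 to 6.27 and from 6.72 to 7.19 (exact p = 0.0286). In the theca list STAR changed by 3.60, whereas the 4 genes had a median change of 0.25 and a lowest of -0.47. The higher mean of that list thus rests mostly on STAR. The part of all these cell types in the results was not tested. In such bulk samples, fewer cells of a type and less RNA per cell cannot be told apart.

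Under the deposited scaling, these genes passed the test about as often as all genes on the array. Of the 78, 18 passed an adjusted p of 0.05 in limma (23.1%), against a background of 23.8% of all genes. Of these, 6 rose, where 11.3% of all genes rose, and 12 fell, where 12.5% of all genes fell. Their median log2 change after hCG was -0.13, and that of all genes was -0.09. The members were brighter, with a median log2 intensity of 8.40 against 6.89 for all genes. The shares were not matched for signal. The groups did not overlap for 17 of the 78, against 27.2% of all genes. Only KDM7A rose at least 2-fold, where 6.13% of all genes did, and only SIRT4 and CHD1L fell at least 2-fold, where 4.33% of all genes did. The 6 increases were those of KDM7A, SETD6, KDM3A, SIRT1, HDAC1 and SIRT7. The 12 decreases were those of SIRT4, CHD1L, SMARCA2, CHD7, CHD8, KDM2B, SMARCD2, BRD8, SETD4, CBX5, KDM4C and SIRT5.

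**Figure D1:**
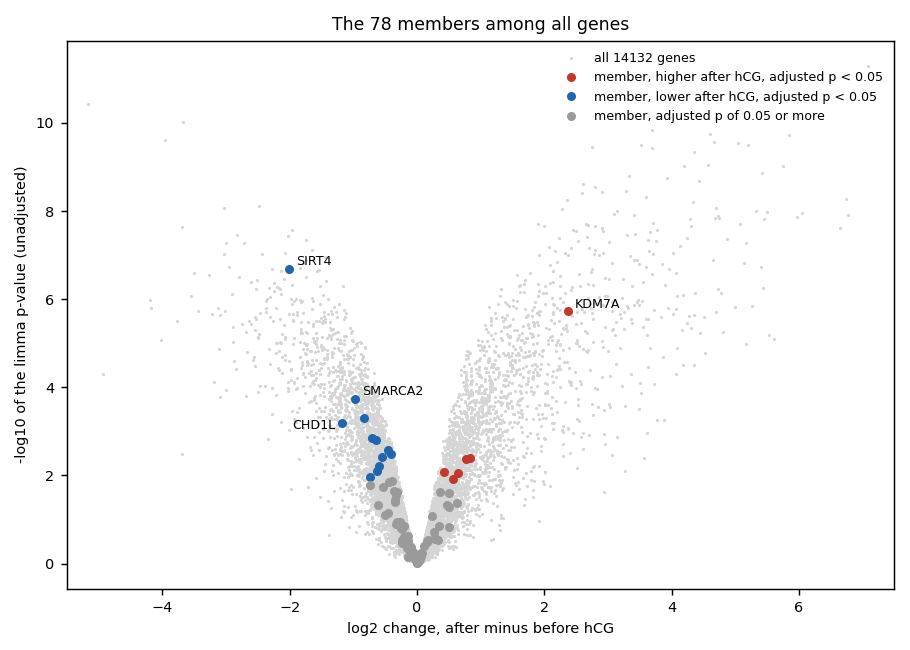
Each dot is a gene, with the log2 change after hCG on the horizontal axis and -log10 of the unadjusted limma p-value on the vertical axis. Small grey dots are all 14132 genes. Large dots are the 78 genes chosen by name, red where higher, blue where lower and grey where not past an adjusted p of 0.05. KDM7A (2.37) and SIRT4 (-2.02) stand at the outer ends of the 78, and most of the others lie within 1 log2 unit of 0.

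These counts depend on scaling. After repeated quantile normalization 3 members were higher (3.85%, against 10.2% of all genes) and 19 lower (24.4%, against 14.8%), and the median change was -0.25 for the members but still -0.09 for all genes. After median centring 6 were higher (7.69%, against 11.8%) and 10 lower (12.8%, against 10.7%). Without array 1 before hCG, 3 members were higher. KDM3A, SIRT1, HDAC1 and SIRT7 lost their calls there, so not all of the 3 belong to the 6 named above. Leaving out array 2 or 4 before or array 1 after hCG took the increases from 6 to 2. The count of decreases lay between 8 and 16 when any 1 array was left out. Of the 18, 8 passed in all 16 alternatives that were run: KDM7A, SIRT4, CHD1L, SMARCA2, CHD7, KDM2B, KDM4C and SMARCD2.

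**Figure D2:**
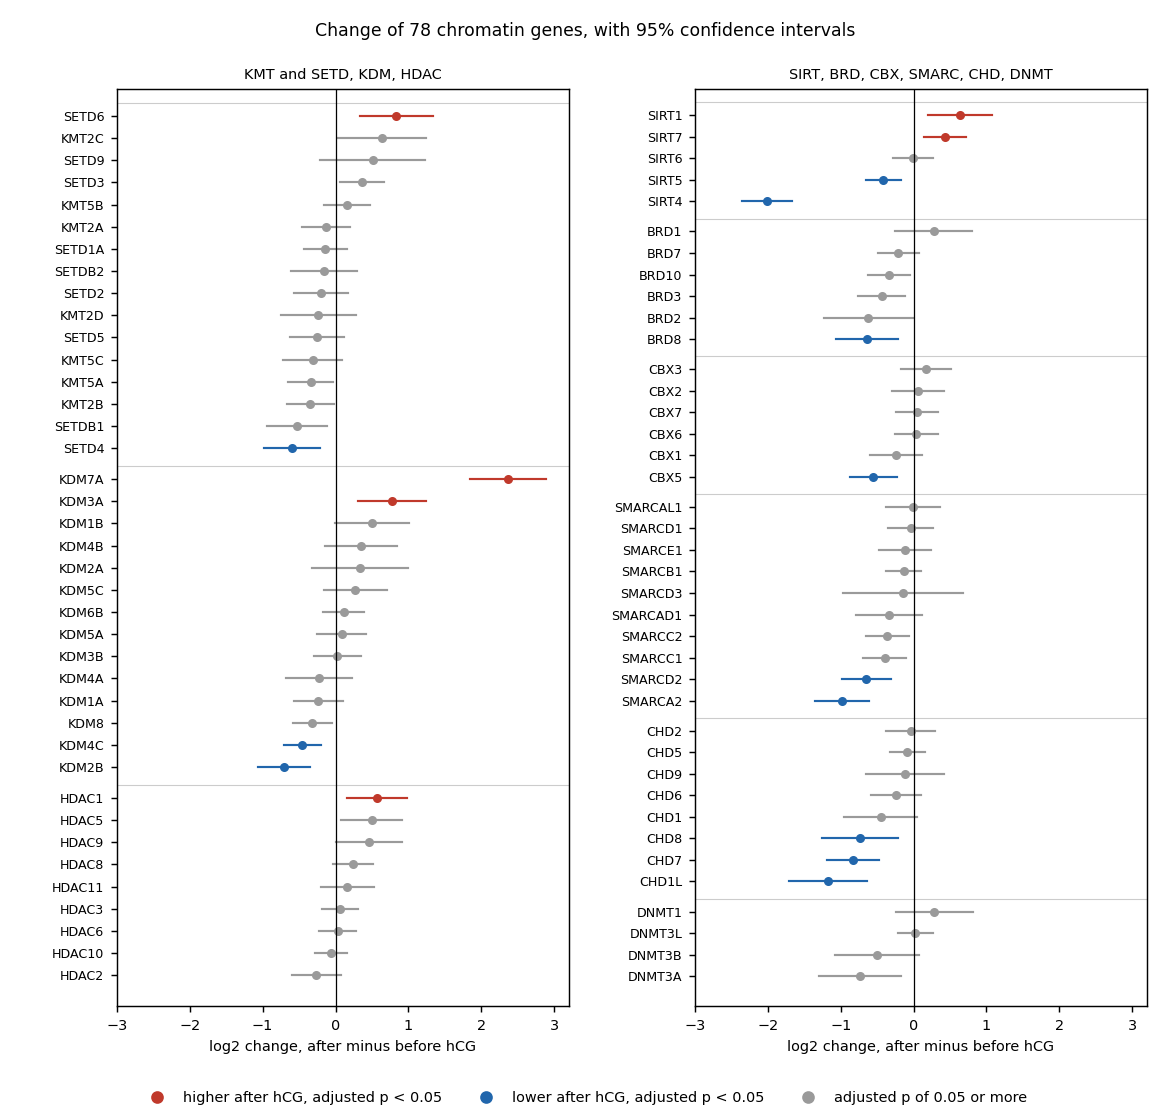
The log2 change after hCG (horizontal axis) of each of the 78 genes, grouped by family, with its 95% confidence interval from limma as a bar; red and blue mark genes higher and lower at an adjusted p under 0.05 and grey the rest. All 10 SMARC and all 8 CHD changes lie at or left of 0, and the KDM genes reach from -0.70 to 2.37.

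The histone demethylases held the largest increase. KDM7A, which removes repressive methyl marks from histone H3, read 7.73, 7.44, 7.53 and 7.37 in arrays 1 to 4 before hCG and 10.23, 9.75, 9.22 and 10.35 after hCG. Every array after hCG lay well above every array before it. The gene rose 5.18-fold (log2 change 2.37, SE 0.23, adjusted p = 0.000101). Its other probe set rose by 2.68 (SE 0.35, adjusted p = 0.000736 over all probe sets), so both sets showed the increase.

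KDM3A, which also removes repressive methyl groups from histone H3, read 7.98, 7.98, 8.38 and 8.30 before and 9.06, 8.69, 8.52 and 9.47 after hCG. The groups did not overlap, and array 3 after hCG was closest to the earlier arrays. The gene rose by 0.78 (SE 0.21, adjusted p = 0.0226). Its other probe sets, at 0.14 and 0.18, did not pass, and the mean of all 3 sets changed by 0.36 (adjusted p = 0.0601). Its call was also lost without array 1 or 2 before or array 1 after hCG (adjusted p = 0.0575 to 0.0636).

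KDM2B and KDM4C fell. KDM2B, which binds unmethylated CpG islands and brings a Polycomb complex to them, read 7.57, 8.06, 7.75 and 7.28 before and 6.94, 6.997, 6.95 and 6.96 after hCG. The 4 later arrays lay within a narrow band below all earlier ones. It fell by 0.70 on the log2 scale (SE 0.16, adjusted p = 0.0101). KDM4C, which removes repressive trimethyl marks from histone H3, read 7.98, 8.05, 8.03 and 7.68 before and 7.49, 7.45, 7.46 and 7.51 after hCG, again without overlap, and fell by 0.46 (SE 0.11, adjusted p = 0.0162). Each of the pair has 1 probe set.

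The other 10 KDM genes did not pass, with changes from -0.32 (KDM8) to 0.50 (KDM1B). KDM1A, the LSD1 demethylase of the CoREST complex, was at 9.39 ± 0.20 before and 9.15 ± 0.22 after hCG (difference -0.24, 95% interval -0.57 to 0.10). KDM6B, which removes the Polycomb mark from histone H3, differed by 0.11 (interval -0.17 to 0.39). KDM2A, the relative of KDM2B, differed by 0.33 with a wide interval of -0.32 to 0.99.

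Among methyltransferases of the KMT and SETD groups, 1 gene rose, 1 fell and 14 of 16 did not pass. SETD6, known for methylating the NF-kB subunit RELA, read 7.12, 6.86, 6.55 and 6.64 before and 7.44, 7.66, 8.23 and 7.19 after hCG. The groups were separate, though array 4 after hCG was only just above array 1 before. It rose by 0.84 (SE 0.22, adjusted p = 0.0222) and did not pass without array 3 or 4 before or array 2 after hCG (adjusted p = 0.0518 to 0.0637).

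SETD4, a SET-domain methyltransferase, read 6.87, 6.93, 6.69 and 6.96 before and 6.73, 5.99, 6.32 and 6.03 after hCG, so that array 1 after hCG overlapped with array 3 before. It fell by 0.60 (SE 0.17, adjusted p = 0.0304). Its other probe set differed by 0.0003, the mean of both by -0.30 (adjusted p = 0.0713), and 5 of the 8 arrays ended the call when left out (arrays 1, 2 and 4 before, arrays 2 and 4 after hCG; adjusted p = 0.0668 to 0.0805).

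The large methyltransferases of active promoters and enhancers did not pass. KMT2A differed by -0.13 (interval -0.46 to 0.19), and none of its 11 probe sets passed. KMT2B differed by -0.35, KMT2C by 0.63 and KMT2D by -0.23 (intervals -0.67 to -0.02, 0.03 to 1.24 and -0.75 to 0.28). SETD2, which marks the bodies of transcribed genes, differed by -0.20 (interval -0.57 to 0.17). SETDB1, which silences repeats and read 9.56, 9.15, 9.38 and 9.20 before and 8.44, 8.65, 9.30 and 8.78 after hCG, differed by -0.53 (adjusted p = 0.0691). Array 3 after hCG was the only later array within the earlier range, and leaving it out gave a change of -0.70 (adjusted p = 0.00883). SETDB1 also passed with its probe sets averaged (-0.32, adjusted p = 0.0418) and after repeated quantile normalization (-0.66, adjusted p = 0.0246).

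Of the 9 zinc-dependent deacetylases, 1 rose and 8 did not pass. HDAC1, the catalytic subunit of the Sin3, NuRD and CoREST corepressors, read 9.88, 9.82, 9.47 and 9.72 before and 10.50, 9.96, 10.02 and 10.69 after hCG. The groups did not overlap, with arrays 2 and 3 after hCG just above the earlier range. It rose by 0.57 (SE 0.18, adjusted p = 0.0495), at the edge of the threshold. The call was lost in 10 of 16 alternatives, among them each array before hCG and arrays 1 and 4 after hCG left out (adjusted p = 0.0684 to 0.121). Its other probe set changed by 0.72 (adjusted p = 0.0941 over all probe sets).

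HDAC2, its close paralog in the same complexes, read 9.75, 9.56, 9.88 and 9.79 before and 9.34, 9.17, 9.74 and 9.67 after hCG and differed by -0.26 (interval -0.60 to 0.07). The remaining HDAC genes differed by -0.06 (HDAC10) to 0.50 (HDAC5). HDAC3, the deacetylase of the NCOR complex, differed by 0.06 with an interval of -0.18 to 0.31.

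Sirtuins, the NAD-dependent deacylases, changed in both directions: of 5 genes, 2 rose, 2 fell and SIRT6 did not pass. This is 80% past, where 23.8% of all genes passed, 11.3% higher and 12.5% lower. After repeated quantile normalization none rose and 2 fell. SIRT4, a mitochondrial enzyme that acts on metabolic proteins, read 8.72, 8.49, 8.69 and 8.98 before and 6.86, 6.77, 6.83 and 6.34 after hCG. The groups were widely separated. It was 4.04-fold lower after hCG (log2 change -2.02, SE 0.15, adjusted p = 2.44e-05), the lowest adjusted p of the 78.

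The brightest probe set of SIRT4 has a name ending in _s_at, which Affymetrix gives to sets that can match several transcripts. A second set of SIRT4 without that ending fell by 2.70 (SE 0.26), and the third differed by -0.35 (adjusted p = 0.163). SIRT5, also mitochondrial, removes succinyl and related groups from proteins. It read 9.35, 9.13, 9.45 and 9.36 before and 8.93, 8.83, 8.96 and 8.91 after hCG. The later arrays all lay lower and close together. It fell by 0.42 (SE 0.11, adjusted p = 0.0193), but not with its 2 probe sets averaged (-0.23, adjusted p = 0.0764) or without array 1 or 3 before or array 2 after hCG (adjusted p = 0.052 to 0.0563).

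SIRT1, a nuclear deacetylase of histones and transcription factors, read 9.03, 8.59, 9.30 and 8.65 before and 9.86, 9.30, 9.30 and 9.67 after hCG. Array 3 before hCG equalled the lowest later arrays to 2 decimals. It rose by 0.64 (SE 0.19, adjusted p = 0.0407). SIRT7, a nucleolar enzyme, read 7.75, 7.74, 7.997 and 7.98 before and 8.39, 8.21, 8.51 and 8.07 after hCG, without overlap, and rose by 0.43 (SE 0.13, adjusted p = 0.039). Both calls rest on a margin. SIRT1 passed in 7 of 16 alternatives (adjusted p = 0.0629 to 0.109 without arrays 1, 2 or 4 before or arrays 1 or 4 after hCG) and SIRT7 in 6 of 16 (adjusted p = 0.0544 to 0.102 without arrays 1, 2 or 4 before or arrays 1, 2 or 3 after hCG), and neither passed after repeated quantile normalization. SIRT6 was at 7.10 ± 0.20 before and 7.09 ± 0.05 after hCG (interval of the difference -0.28 to 0.27).

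**Figure D3:**
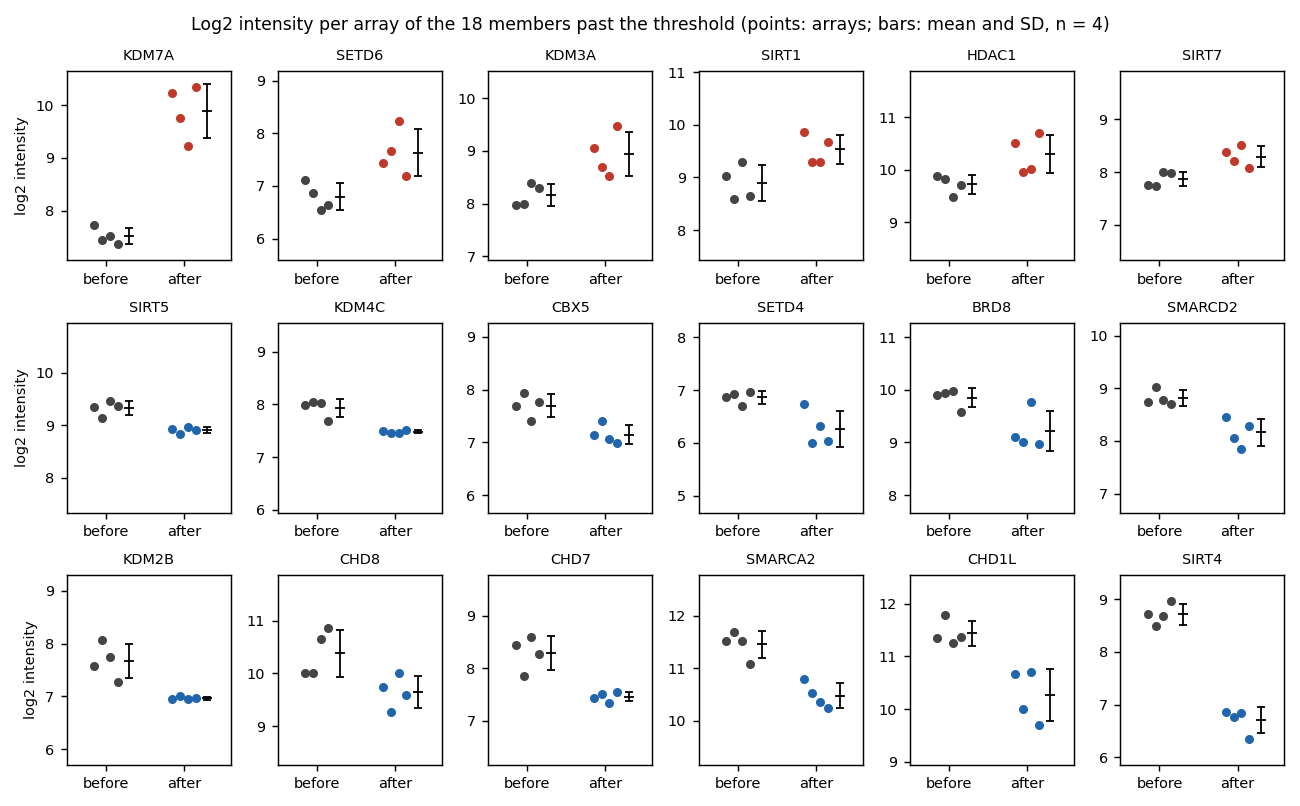
Log2 intensity in each array before (dark points) and after hCG (red where higher, blue where lower) for the 18 genes past an adjusted p of 0.05, ordered by change, with mean and SD (n = 4) beside each group; every panel spans the same range of 3.6 log2 units. KDM7A and SIRT4 show the widest gaps between groups, and in BRD8 array 3 after hCG sits among the earlier arrays.

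Among the 6 BRD genes, 1 fell and 5 did not pass. BRD8, the bromodomain subunit of the TIP60 acetyltransferase complex, read 9.91, 9.93, 9.97 and 9.58 before and 9.10, 9.01, 9.77 and 8.97 after hCG. Array 3 after hCG lay above array 4 before, so the groups overlapped. It fell by 0.63 (SE 0.19, adjusted p = 0.0364), and did not pass without any 1 of arrays 1, 2 or 3 before or arrays 1, 2 or 4 after hCG (adjusted p = 0.0841 to 0.0929).

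BRD2 and BRD3 belong to the BET family, which binds acetylated histones and recruits the transcription machinery to them. BRD2 read 11.02, 10.48, 10.55 and 10.20 before and 9.32, 10.18, 10.58 and 9.70 after hCG, with array 3 after hCG among the highest. Its brightest set did not pass (difference -0.62, adjusted p = 0.136), but leaving out that array gave a change of -0.83 (adjusted p = 0.0361) and averaging its probe sets one of -0.63 (adjusted p = 0.0272). Of its 4 probe sets, 2 others fell, by 0.68 (SE 0.12) and by 1.02 (SE 0.25). BRD3 differed by -0.44 (interval -0.77 to -0.11, adjusted p = 0.0562).

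Of 6 chromobox genes, 1 fell and 5 did not pass. CBX5, the heterochromatin protein HP1 alpha, read 7.69, 7.94, 7.40 and 7.76 before and 7.14, 7.40, 7.05 and 6.99 after hCG. The lowest earlier and the highest later array both rounded to 7.40, and the groups did not overlap. It fell by 0.55 (SE 0.14, adjusted p = 0.021). Its other set differed by 0.08, the mean of both by -0.24 (adjusted p = 0.0818), and the call was lost without array 2 or 4 before or array 4 after hCG (adjusted p = 0.0543 to 0.0569). The other HP1 genes, CBX1 and CBX3, differed by -0.24 and 0.17, and the Polycomb chromobox genes CBX2, CBX6 and CBX7 by 0.04 to 0.07, all with intervals that include 0.

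The SMARC genes encode subunits of SWI/SNF and related remodellers. Of 10, 2 fell (20%, against 12.5% of all genes), none rose and 8 did not pass. All 10 changes were below 0, as were those of 62.0% of all genes. After median centring 8 of the 10 were below 0 (57.0% of all genes), and after repeated quantile normalization 10 (62.3% of all genes). SMARCA2, also known as BRM and one of the alternative ATPase motors of SWI/SNF, read 11.52, 11.69, 11.52 and 11.09 before and 10.79, 10.53, 10.35 and 10.24 after hCG. The groups were separate. It was 1.97-fold lower (log2 change -0.98, SE 0.17, adjusted p = 0.00225), and 4 of its 5 probe sets fell, with changes from -1.11 to -0.71 over the 5.

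SMARCD2, an accessory subunit, read 8.74, 9.03, 8.78 and 8.70 before and 8.45, 8.07, 7.85 and 8.28 after hCG. It fell by 0.65 (SE 0.15, adjusted p = 0.0112), with no overlap between groups. Its paralogs SMARCD1 and SMARCD3 differed by -0.04 and -0.14. SMARCD3 varied widely after hCG, at 9.23, 7.08, 8.32 and 8.34, against 8.15 to 8.54 before. The scaffold SMARCC1 read 11.43, 11.27, 11.09 and 10.98 before and 10.80, 10.68, 10.98 and 10.71 after hCG. It differed by -0.40 (adjusted p = 0.0537), and passed without array 4 before or array 3 after hCG (adjusted p = 0.0412 and 0.041). SMARCC1 also passed after repeated quantile normalization (-0.51, adjusted p = 0.0242) and with 32 added to each intensity (adjusted p = 0.0394). It did not pass in the other alternatives, such as with its probe sets averaged (-0.29, adjusted p = 0.193). The core subunit SMARCB1 was steadier, at 10.97 ± 0.10 before and 10.84 ± 0.11 after hCG (interval of the difference -0.38 to 0.11).

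Of the 8 CHD remodellers, 3 fell, none rose and 5 did not pass. After repeated quantile normalization 3 were also lower, and after median centring 2. All 8 changes were below 0, and 7 of the 8 after either other scaling. CHD1L, a remodeller that poly(ADP-ribose) switches on at DNA damage, read 11.36, 11.79, 11.26 and 11.36 before and 10.67, 9.99, 10.71 and 9.70 after hCG. After hCG, arrays 2 and 4 lay lowest and all arrays lay under the earlier ones. It was 2.26-fold lower (log2 change -1.17, SE 0.24, adjusted p = 0.00574), and 3 of its 4 probe sets fell.

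CHD7, whose loss causes CHARGE syndrome, read 8.44, 7.85, 8.596 and 8.26 before and 7.44, 7.52, 7.34 and 7.54 after hCG. The later arrays were close together and below all earlier ones. It fell by 0.83 (SE 0.16, adjusted p = 0.00473), and 2 of 3 probe sets fell. CHD8, a relative known from autism genetics, read 10.01, 10.004, 10.66 and 10.86 before and 9.74, 9.28, 10.01 and 9.58 after hCG, with arrays 1 and 2 before hCG level with array 3 after. It fell by 0.73 (SE 0.23, adjusted p = 0.0458).

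The call of CHD8 held in 7 of 16 alternatives. It was lost without array 3 or 4 before or array 1, 2 or 4 after hCG (adjusted p = 0.0764 to 0.116). Its second probe set differed by 0.01, and the mean of both by -0.36 (adjusted p = 0.056). CHD1 differed by -0.45 (interval -0.95 to 0.05), and CHD2, CHD5, CHD6 and CHD9 by -0.24 to -0.04.

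None of the 4 DNMT genes passed. Before adjustment, 1 of the 4, DNMT3A, was under 0.05 in limma. DNMT3A, which places new DNA methylation, read 9.36, 9.89, 9.36 and 8.75 before and 8.06, 8.77, 8.73 and 8.85 after hCG. Array 4 before hCG lay among the later arrays. It differed by -0.74 (SE 0.25, adjusted p = 0.0634). It was past the threshold without array 4 before hCG (change -0.93, adjusted p = 0.0226), after repeated quantile normalization (adjusted p = 0.0347) and with low signals left out (adjusted p = 0.0463).

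DNMT3B, the related de novo enzyme, read 8.74, 9.33, 8.68 and 8.62 before and 8.27, 8.25, 9.03 and 7.81 after hCG. It differed by -0.50 (adjusted p = 0.193), or by -0.73 without array 3 after hCG (adjusted p = 0.029). DNMT1, which copies methylation after replication, read 5.92, 6.34, 6.03 and 5.63 before and 6.45, 5.61, 6.68 and 6.32 after hCG. The groups overlapped, though arrays 1 and 3 after hCG lay above every earlier array and array 2 below. DNMT1 differed by 0.28 (interval -0.24 to 0.81). It is read by 1 probe set. DNMT3L, a catalytically inactive cofactor, stayed between 4.31 and 4.55 in all 8 arrays, under every array's median, and the table has no detection call to say whether it was present.

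Different probe sets of one gene did not always tell the same story. The 78 genes have 180 probe sets, of which 27 (15%) passed when all probe sets were tested together, against 14.1% of all probe sets. Of these, 5 rose and 22 fell. No gene had sets called in both directions. Among the 18 genes past the threshold, 6 have 1 probe set. Of the 12 with several, 5 had at least 2 sets past the threshold: KDM7A, SIRT4, SMARCA2, CHD1L and CHD7.

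In 3 genes the brightest set did not pass and another did: BRD2 (above), SETD3 and SMARCE1. SETD3, a methyltransferase of actin, differed by 0.36 in its brightest set (adjusted p = 0.0839), whereas its second brightest fell by 1.204 (SE 0.23, adjusted p = 0.00587 over all probe sets) and its dimmest fell by 0.54. SMARCE1, a DNA-binding subunit of SWI/SNF, differed by -0.12 in its brightest set, while its other set, again of the _s_at kind, rose by 0.82 (SE 0.16, adjusted p = 0.00749 over all probe sets). Which set follows the transcript best was not tested.

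**Figure D4:**
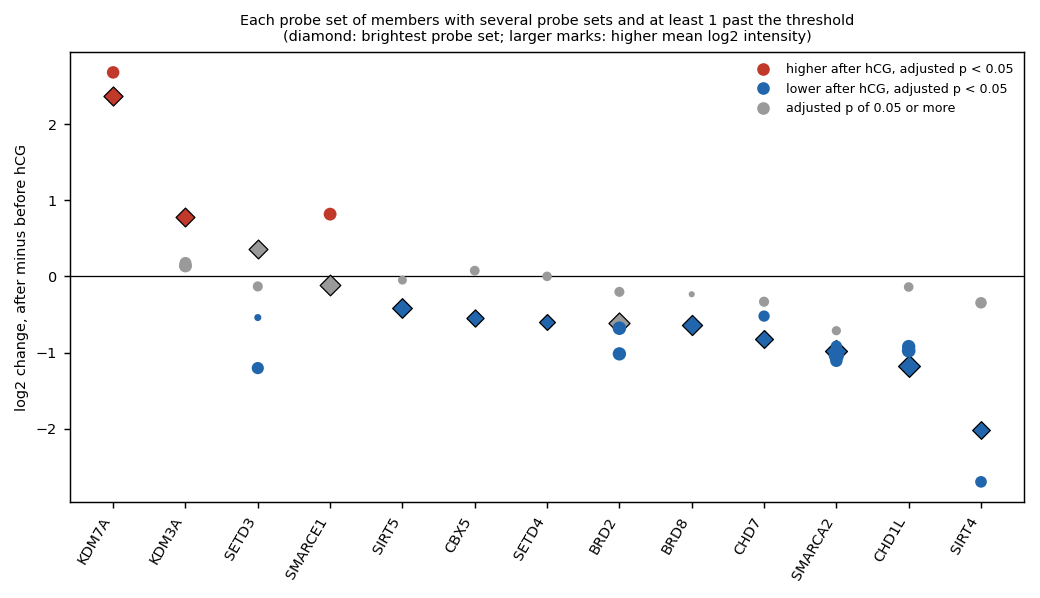
The log2 change after hCG (vertical axis) of every probe set of the 13 genes with several probe sets of which at least 1 passed when all probe sets were tested; diamonds are the brightest sets, larger marks have a higher mean signal, red is higher, blue lower and grey not past. SETD3, SMARCE1 and CBX5 have sets on both sides of 0, and SETD4 has a set below 0 and another at 0.0003. All sets of KDM7A lie above 0 and all of SMARCA2, CHD1L and SIRT4 below.

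Close paralogs were compared directly, since a call in one and none in the other does not show that they differ. In 19 pairs the log2 difference between the paralogs was taken within each array and compared between groups by a two-sided exact permutation test. The change of HDAC1 exceeded that of HDAC2 by 0.83 (SE 0.24, exact p = 0.0286), and that of KDM1B exceeded that of KDM1A by 0.74 (KDM1A minus KDM1B -0.74, SE 0.24, exact p = 0.0286). The change of KDM2A was 1.04 above that of KDM2B (SE 0.32, exact p = 0.0571), and that of SMARCD1 0.61 above that of SMARCD2 (SE 0.23, exact p = 0.0571). None of the 19 passed after Benjamini-Hochberg adjustment over the pairs (lowest adjusted p = 0.181), and 2 had an unadjusted exact p under 0.05. With 4 arrays a group, at least 11 of the 19 would have had to reach the smallest exact p for any to pass, so the adjusted values say little about whether paralogs differ. SMARCC1 and SMARCC2 changed by -0.40 and -0.36, and BRD2 and BRD3 by -0.62 and -0.44 (exact p = 0.8286 and 0.6286).

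Other chromatin genes, outside the name rule, were taken from 12 lists. Of 178 listed genes, 134 were measured, and of these 11 rose (8.21%, against 11.3% of all genes), 29 fell (21.6%, against 12.5%) and 94 did not pass. The median change was -0.15, beside -0.09 for all genes. The median log2 intensity was 8.34, against 6.89 for all genes, and these shares were not matched for signal either. Of 13 SWI/SNF subunits outside the SMARC genes, 1 fell and 12 did not pass, and of 5 NuRD subunits none passed in limma, where 1, the methylated-DNA reader MBD2, was under 0.05 before adjustment.

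Among 16 Polycomb genes, which keep silenced genes off, 2 rose, 2 fell and 12 did not pass (25% past, near the 23.8% of all genes). JARID2, a partner of the repressive methyltransferase complex, rose from 8.79 ± 0.21 to 11.23 ± 0.21 (log2 change 2.45, SE 0.15, adjusted p = 6.27e-06). PHC2 rose by 1.81, or 0.93 with its probe sets averaged. SUZ12, a core subunit of the methyltransferase complex that JARID2 partners, fell by 1.01. Of 6 partners of ISWI remodellers, 1 rose and 2 fell (50% past), and among them BPTF fell by 1.84 (change -0.87 with its 5 probe sets averaged).

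Of 7 genes listed as readers and erasers of DNA methylation, 2 rose and 3 fell (71.4% past, against 23.8% of all genes). The list also counts the remodeller HELLS, one of the 3 that fell. The demethylating enzyme TET1 fell by 2.12 (change -1.27 with probe sets averaged), and its relative TET3 rose by 1.17 (0.65 with probe sets averaged). UHRF1, which guides DNMT1 to newly copied DNA, fell by 1.81, and HELLS, a remodeller needed for DNA methylation, fell by 2.64 (change -1.22 with probe sets averaged). Of 11 histone chaperones, which load histones onto DNA, 7 fell (63.6%, against 12.5% of all genes) and 4 did not pass. HJURP fell by 1.54, ASF1B fell by 1.495 and CHAF1A fell by 1.21.

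**Figure D5:**
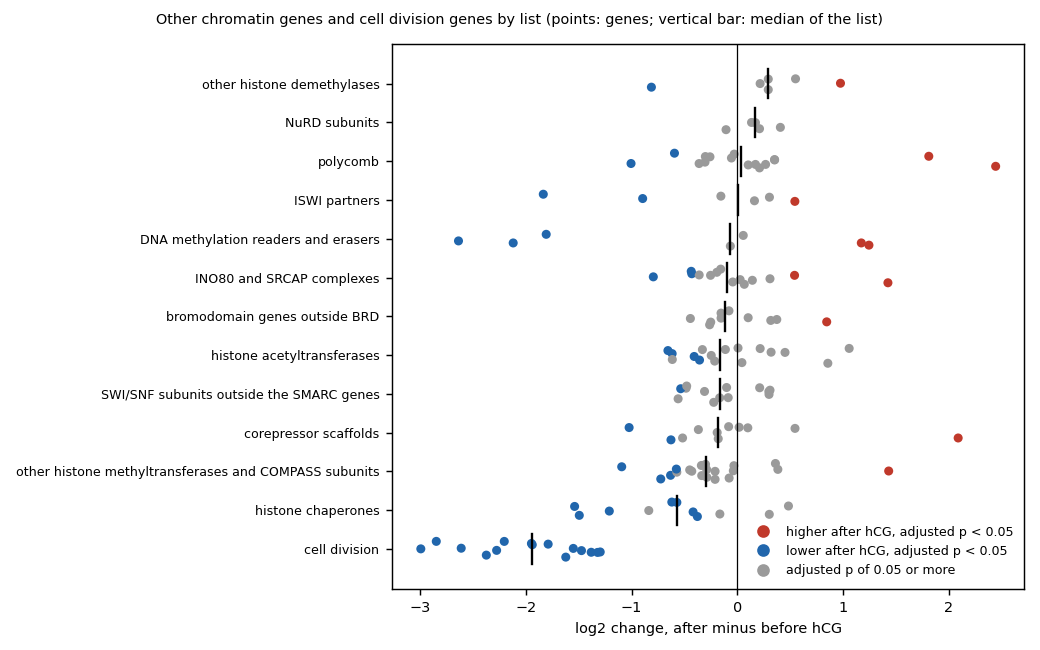
Log2 change after hCG (horizontal axis) of chromatin genes outside the name rule and of cell division genes, 1 point a gene in rows by list, red where higher, blue where lower and grey where not past an adjusted p of 0.05, with a bar at each list's median. The cell division genes all lie at or left of -1.297, and histone chaperones have the next lowest median, -0.57.

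Transcripts of dividing cells were lower after hCG. All 15 measured genes of cell division fell, with changes from -2.995 (MKI67) to -1.297, and their mean ranged from 9.41 to 9.92 over the arrays before and from 7.42 to 7.90 after hCG (exact permutation p = 0.0286). CBX5, KMT5A, DNMT1 and some of the chaperones are known to vary with the cell cycle. The part of proliferation in their values, and in those of UHRF1 and HELLS, was not tested. KMT5A differed by -0.34 and did not pass (adjusted p = 0.11 in limma). DNMT1 differed by 0.28 and did not pass, and PCNA, its partner at the replication fork, fell by 1.79. The 1 probe set of DNMT1 is dim, at a mean of 6.12 where the median of all genes was 6.89. Without a detection call, its level is not settled.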

How the data were processed

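The deposited table holds intensity values on a linear scale, summarised per probe set by the authors; the submitters' processing notes name Expression Console and RMA, a standard normalization of Affymetrix arrays; no version, detection call or batch is given in the sources used here. After 99 array controls were left out of 52865 rows, log2 was taken. GEO's platform annotation gave 1 symbol to 24956 of 52766 probe sets, several to 361 and none to 27449; symbols were updated through RefSeq gene IDs for 24616, which changed no member. Each of 14132 genes was represented by its brightest probe set. The groups were compared (after minus before hCG) with limma 3.58.1 in R 4.3.3, two-sided, with Benjamini-Hochberg adjustment over all genes. The procedure was tested on simulated data with independent noise and fewer changed genes than passed here, so that test does not cover every feature of these data.

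The members and lists were chosen with earlier results of these data known. Named are all members past the threshold, the brightest and the lowest-p member of each family, all DNMT genes, up to 3 genes per direction of each other list and the brightest markers; further members were named after their values were seen. From the lists, genes that passed under all alternatives were preferred. The paralog pairs were chosen likewise after the values were known. The number of arrays limits the precision. No sequences were used.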

Additional observations from a re-analysis of the deposited data

Results flagged for a closer look

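Single arrays stood apart from the other 3 of their group in 6 of the 54 groups of 4 arrays examined for the named members. The measure was Dixon's ratio of the gap to the whole range (above its 95% critical value). Chance alone sets an array apart in about 1 in 20 such groups. BRD8 had such an array in both groups. Array 4 before hCG read 9.58 with the next at 9.91 (ratio 0.838), and array 3 after hCG read 9.77 with the next at 9.10 (ratio 0.84). For DNMT3A, array 1 after hCG read 8.06 with the next at 8.73 (ratio 0.849). For DNMT3B, array 2 before hCG read 9.33 with the next at 8.74 (ratio 0.841). KDM4C read 7.68 in array 4 before hCG with the next at 7.98 (ratio 0.831), and SIRT4 read 6.34 in array 4 after hCG with the next at 6.77 (ratio 0.832). KDM4C and SIRT4 passed the threshold without these arrays too.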

How the results depend on the processing

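Of the 18 members past the threshold, 8 stayed past it in all 16 alternatives and 10 lost the call in at least 1, with no change of direction. Against 6 higher and 12 lower members, 3 were higher when all probe sets were tested together, and 3 were higher and 19 lower after repeated quantile normalization; leaving out 1 array gave 2 to 5 higher and 8 to 16 lower. The members' median change was -0.25 after repeated quantile normalization, -0.20 with genes of low signal left out, and -0.15 to -0.09 when 1 array was left out. Whether the replicate numbers of the titles pair the arrays was not stated. Same-number correlations of the deviations from the group means were -0.03 to 0.16 (1 of 4 over 0.1). So few correlations cannot exclude pairing. With the replicate block, 6 members were higher and 11 lower: SIRT1, SIRT7 and SETD4 lost the call (adjusted p = 0.0565, 0.0641 and 0.0576), and HDAC5 and KMT2C gained it (0.0194 and 0.0426). Values near 0 changed sign without being called: without single arrays DNMT3L ranged from -0.0097 to 0.068, TYROBP from -0.33 to 0.42 and PECAM1 from -0.19 to 0.33, and PECAM1 was at -0.016 for the mean of its probe sets and -0.0038 after repeated quantile normalization. The cause of these shifts was not tested. With 32 added to each intensity, 4 members were higher and 12 lower. Without detection calls, dim genes such as DNMT3L have no settled level.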
